A study of Homo sapiens with 2 samples.

Results

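Transcripts of the HLA class I antigen presentation pathway were compared between H1993, an established human lung adenocarcinoma cell line with amplified MET, and a derivative of it that resists the MET kinase inhibitor PHA665752. The 9 genes described here are the class I heavy chain genes HLA-B, HLA-C, HLA-E and HLA-F, the light chain gene B2M, the peptide loading genes TAP1, TAP2 and TAPBP, and the transactivator gene NLRC5. They were taken by symbol from the 18944 genes of the deposited count table, and all 9 were found. There was 1 library per group. The parental library is labelled with DMSO as its treatment. The resistant library is labelled with PHA665752, and it came from parental cells exposed to rising drug, 1 nM at first and 1 µM at the end, and then kept at 1 µM. The derivative spent 1 week without drug before experiments, and the labels leave unstated whether RNA was taken with drug in the medium and whether the derivative is a clone or a mixed population. Both libraries share the cell line, and no other allele or agent is labelled.

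Class I molecules display peptides from inside the cell to CD8 T cells. The proteasome cuts proteins into peptides, the TAP transporter carries these into the endoplasmic reticulum, and tapasin helps to load them onto a heavy chain paired with beta-2-microglobulin. NLRC5 acts on the promoters of class I genes together with factors bound at the S, X and Y boxes. Interferon response elements and NF-kB sites lie upstream of the classical class I genes, and interferon gamma is the best known inducer of the pathway.

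Library totals were 16723181 counts (parental) and 17086748 counts (resistant). CPM values are counts per 1000000 and refer to effective library sizes of 16834058 and 16974207. The 9 genes took 0.0482% of the parental and 0.0782% of the resistant counts, with between 60 and 5370 counts per gene and library. The log2 ratio sets resistant over parental counts after an addition of 0.5 to both, and folds are its antilog. The intervals are exact 95% intervals of the counts without that addition, and they cover counting error only. Genes that reached 1 CPM in either library were counted as measured, 12245 in all, and a gene was called higher or lower when it differed by 2-fold or more and its interval excluded no difference. With 1 library per group no replicate measures the spread between cultures, no p-value is given, and every statement describes these 2 libraries.

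Epithelial tumour transcripts were abundant in both libraries. MET had 81798 and 51832 counts and KRT8 had 44881 and 57605, whereas the lung alveolar gene NAPSA had 0 in both. Of 11 lung epithelial and carcinoma markers 8 were measured, and EPCAM was the 1 called, lower by a log2 ratio of -1.25. The 15 leukocyte markers summed to 3.15 CPM in parental and 4.12 CPM in resistant cells, with CD2, CD3D, CD3E, MS4A1, TYROBP and LAPTM5 at 0 counts in both. PTPRC had 21 and 7 counts and CD14 had 5 and 33. The 8 fibroblast markers summed to 20.9 and 15.1 CPM, nearly all of it COL1A1. Of 6 endothelial markers CDH5 had 5 and 495 counts, and the other 5 summed to 4 and 2 counts. In these bulk libraries fewer cells of a type and less RNA per cell cannot be told apart.

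The promoters of 5 genes are shown because the values below set them against each other: the chains HLA-B and HLA-C, the light chain, and the transporter subunits TAP1 and TAP2. Each sequence is the 250 bases before the transcription start in the RefSeq promoter table of build GRCh38.p14, written 5′ to 3′ on the gene's own strand. The windows are HLA-B at chr6:31357180-31357429 (minus strand), HLA-C at chr6:31272093-31272342 (minus), B2M at chr15:44711267-44711516 (plus), TAP1 at chr6:32853705-32853954 (minus) and TAP2 at chr6:32838740-32838989 (minus). Capitals mark matches on either strand to the interferon response element core, spelled TTTCNNTTC or, in a longer form, as TTTC and TTTC with any 2 bases between them, and to the NF-kB core, searched as GGG and CC with 5 bases between them of which the third is T.
HLA-B: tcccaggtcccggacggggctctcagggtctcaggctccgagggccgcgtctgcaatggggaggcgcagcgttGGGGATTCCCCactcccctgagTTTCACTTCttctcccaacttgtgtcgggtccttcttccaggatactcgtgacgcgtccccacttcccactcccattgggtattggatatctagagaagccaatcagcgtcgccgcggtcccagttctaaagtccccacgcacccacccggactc
HLA-C: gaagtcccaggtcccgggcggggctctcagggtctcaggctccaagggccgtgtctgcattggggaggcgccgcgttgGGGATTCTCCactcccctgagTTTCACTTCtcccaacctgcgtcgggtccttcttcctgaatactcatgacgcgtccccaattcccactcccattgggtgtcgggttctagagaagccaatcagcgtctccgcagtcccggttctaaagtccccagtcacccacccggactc
B2M: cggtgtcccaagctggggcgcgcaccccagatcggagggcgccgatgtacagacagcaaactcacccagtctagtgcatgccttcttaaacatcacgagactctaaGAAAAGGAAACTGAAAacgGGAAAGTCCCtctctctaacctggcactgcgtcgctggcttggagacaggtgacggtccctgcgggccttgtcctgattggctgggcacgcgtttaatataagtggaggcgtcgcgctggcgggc
TAP1: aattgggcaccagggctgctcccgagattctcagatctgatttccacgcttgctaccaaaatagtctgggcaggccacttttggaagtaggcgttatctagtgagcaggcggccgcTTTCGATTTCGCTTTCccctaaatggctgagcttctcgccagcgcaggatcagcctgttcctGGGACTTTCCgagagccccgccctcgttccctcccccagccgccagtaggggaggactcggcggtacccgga
TAP2: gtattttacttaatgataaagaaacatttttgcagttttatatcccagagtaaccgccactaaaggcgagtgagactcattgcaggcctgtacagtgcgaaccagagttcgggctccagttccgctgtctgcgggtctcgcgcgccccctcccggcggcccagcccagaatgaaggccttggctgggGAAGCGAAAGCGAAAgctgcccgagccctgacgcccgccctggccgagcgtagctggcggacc

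The table held a window for 7 of the 9 genes, all but HLA-E and NLRC5. The HLA-B and HLA-C windows were 89.0% identical over 254 aligned columns, and both carried TTTCACTTC and a match to the NF-kB core just upstream of it. HLA-F was 80.4% identical to HLA-B over 255 columns, carried TTTCTCTTTC and had no match to the NF-kB core. At least 1 spelling of the interferon response element core was found in 7 of 7 windows, against 9.08% of all 35116 windows of this length. TTTCNNTTC alone was found in 3 windows (6.56% of all), and the longer form, a spelling added after the windows were seen, in 5 (3.02%), with TAP2 holding both in overlap. The NF-kB core was found in 5 of 7 (19.7% of all), and the 2 windows without it were HLA-F and TAP2. The X2 box core TGACG was found in 4 (21.2%), the Y box core CCAAT in 5 (32% of all) and the STAT core TTCNNNGAA in 0 (6.57%). A match is a run of letters and was not tested as a binding site.

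Of the 9 genes, 4 were called higher in the resistant library, against 12.1% of all measured genes, and 0 were called lower, against 8.29%. The 4 were TAP1, NLRC5, HLA-B and HLA-F. The log2 ratio was above 0 for all 9, against 50.0% of measured genes, and the median was 0.85 beside 0.00 over all measured genes. For HLA-E (-0.11 to 0.17) and TAP2 (-0.07 to 0.14) the interval included 0, so the counts do not settle their direction. The ratios fell into an upper group of 4 at 1.46 to 1.97, an intermediate pair at 0.69 and 0.85, and 3 genes at 0.03 to 0.26. Every one of the 9 was above 1 CPM in both libraries, so none entered through 1 library alone.

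**Figure D1:**
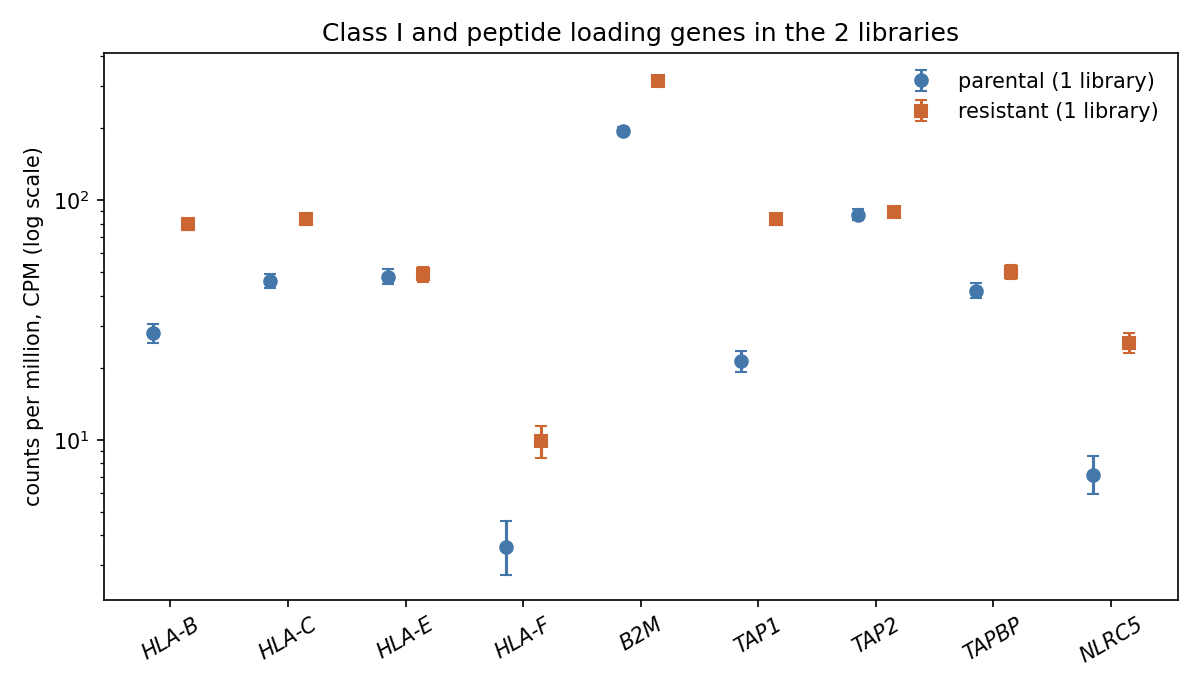
CPM (log scale) of the 9 genes in the parental (circles) and resistant (squares) library, 1 library each, with exact 95% Poisson intervals for counting error. TAP1 lies at 21.3 and 83.5 CPM, whereas the points of TAP2, at 87.2 and 89.5 CPM, overlap within their intervals.

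Among the heavy chains, HLA-B and HLA-C are classical chains that present peptides to T cells. HLA-B had 469 parental and 1351 resistant counts, which is 27.9 CPM (interval 25.4 to 30.5) and 79.6 CPM (75.4 to 84.0). The resistant level was the higher one by 2.86-fold (2.57 to 3.18). HLA-C had 775 and 1413 counts, at 46.0 CPM (42.9 to 49.4) and 83.2 CPM (79.0 to 87.7). HLA-C was 1.81-fold higher (1.66 to 1.98), and this whole interval lay below the 2-fold rule. The fold of HLA-B was 1.58 times that of HLA-C (exact conditional interval of the ratio of ratios 1.38 to 1.82). Such a ratio of folds does not depend on library scaling.

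HLA-E is a nonclassical chain that mainly binds peptides from the leader sequences of other class I chains and is read by NKG2A receptors on natural killer cells. It had 809 parental and 833 resistant counts, at 48.1 CPM (44.8 to 51.5) and 49.1 CPM (45.8 to 52.5). Its log2 ratio was 0.03 (-0.11 to 0.17), so a difference beyond these bounds was not seen in these counts. The fold of HLA-B was 2.80 times that of HLA-E (2.42 to 3.24).

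HLA-F, a nonclassical chain that can also reach the surface without peptide, was the scarcest of the 4 chains. It had 60 parental and 167 resistant counts, at 3.56 CPM (2.72 to 4.59) and 9.84 CPM (8.40 to 11.5). It was 2.75-fold higher (2.04 to 3.77). Its ratio could not be separated from that of HLA-B, with a ratio of ratios of 1.04 (0.743 to 1.43).

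Together the 4 chain genes had 2113 parental and 3764 resistant counts, 125.5 and 221.7 CPM, a 1.77-fold difference (1.67 to 1.86). The mix of chains differed as well. HLA-E made up 38.3% of these counts in the parental library (36.2 to 40.4%, exact Clopper-Pearson) and 22.1% in the resistant one (20.8 to 23.5%). HLA-B went the other way, from 22.2% (20.4 to 24%) to 35.9% (34.4 to 37.4%). HLA-C held 36.7% (34.6 to 38.8%) and 37.5% (36 to 39.1%), intervals that overlap. HLA-F held 2.84% and 4.44%.

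**Figure D2:**
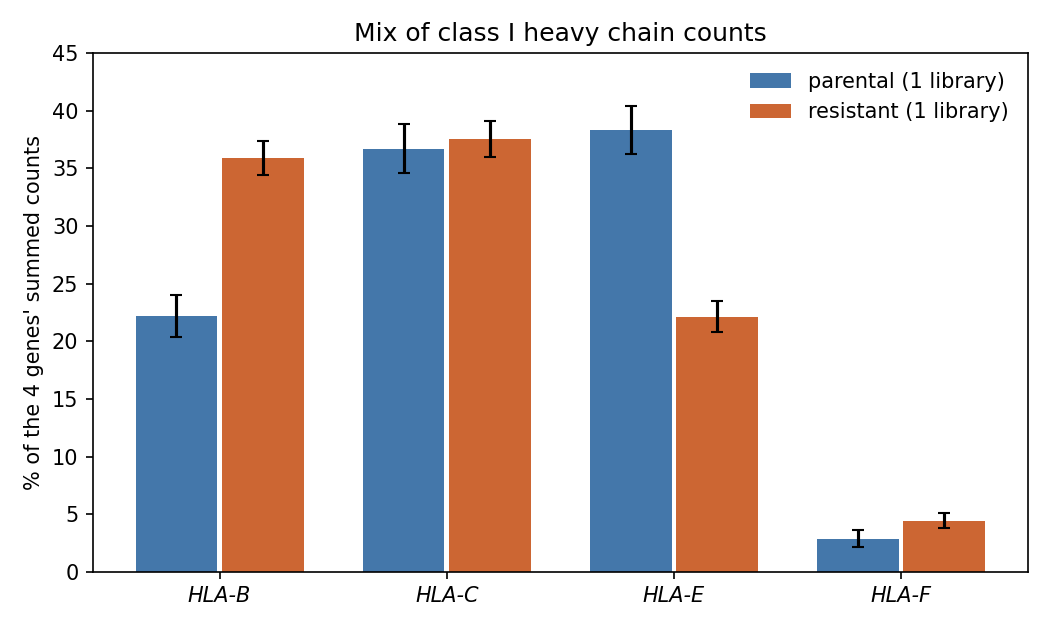
Share (%) of each heavy chain gene in the summed counts of HLA-B, HLA-C, HLA-E and HLA-F in the parental and the resistant library, 1 library each; bars are shares and error bars exact 95% binomial intervals. HLA-E is the tallest bar of the parental library at 38.3% and stands at 22.1% in the resistant one, where HLA-B and HLA-C are at 35.9% and 37.5%.

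The sums and shares cover these 4 genes and no other class I gene. HLA-G, a further nonclassical chain, had 6 and 8 counts. Heavy chain genes resemble one another, so reads can be assigned to the wrong copy. The treatment of reads that fit several genes is not stated, and the alleles of the cell line were not analysed here. Of all stretches of 75 bases in the longest coding GENCODE transcript, 0% for HLA-B, 0% for HLA-F, 1.96% for HLA-C and 2.02% for HLA-E also occurred in a transcript of another gene. With shorter stretches of 40 bases the shares were 6.50%, 3.26%, 11.6% and 7.69% in that order. For B2M and NLRC5 the share was 0% at both lengths. The read length is not given in the sources used here.

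B2M encodes the light chain shared by all class I heavy chains and by several class I-like proteins. It had 3295 parental and 5370 resistant counts, at 195.7 CPM (189.1 to 202.5) and 316.4 CPM (308 to 324.9). It was 1.62-fold higher (1.55 to 1.69), short of the 2-fold rule. The fold of HLA-B was 1.77 times that of B2M (1.58 to 1.98), and the 4 summed heavy chains stood at 1.77-fold, as given above.

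The transporter subunits diverged. TAP1 and TAP2 form the heterodimer that pumps peptides into the endoplasmic reticulum. TAP1 had 358 parental and 1418 resistant counts, at 21.3 CPM (19.1 to 23.6) and 83.5 CPM (79.3 to 88.0), and was 3.92-fold higher (3.50 to 4.42). It had the highest ratio of the 9 genes, above that of 93.6% of measured genes.

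TAP2 had 1468 and 1519 counts, at 87.2 CPM (82.8 to 91.8) and 89.5 CPM (85.0 to 94.1). Its log2 ratio was 0.04 (-0.07 to 0.14). The fold of TAP1 was 3.83 times that of TAP2 (3.33 to 4.40). In CPM, TAP1 was thus far below TAP2 in the parental library and near it in the resistant one, though levels of different genes are compared per length further below.

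TAPBP encodes tapasin, which tethers the heavy chain to the transporter. It had 707 parental and 852 resistant counts, at 42.0 CPM (39.0 to 45.2) and 50.2 CPM (46.9 to 53.7). The difference was 1.20-fold (1.08 to 1.32), and the fold of TAP1 was 3.29 times that of TAPBP (2.81 to 3.84). Gene models overlap at some of these loci: PSMB8-AS1 with TAP1, RGL2 with TAPBP, and HLA-F-AS1 and RPL23AP1 with HLA-F in RefSeq. In TAP2, 35.5% of the 75-base stretches also belonged to another gene, all 1990 of them found in the GENCODE gene model AL669918.1. The strand setting of the counting is not stated, so reads of overlapping genes cannot be told apart.

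NLRC5, the class I transactivator, was the least abundant of the 9 per length. It had 120 parental and 431 resistant counts, at 7.13 CPM (5.91 to 8.52) and 25.4 CPM (23.1 to 27.9). It was 3.55-fold higher (2.90 to 4.40), a ratio above that of 93.1% of measured genes. CIITA, the related transactivator of class II genes, had 0 counts in both libraries, which allows up to 0.178 and 0.177 CPM. Of 13 class II genes on the list, CIITA included, 9 had 0 counts in both libraries, and the list summed to 25 counts in each. HLA-DOB, with 18 and 16 counts, was the 1 class II gene measured.

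The deposited table also holds a normalized log2 value per gene and library, which allowed the genes to be ordered per length. A level per length was computed as 2 to the power of that value, minus 1. For 9483 genes with at least 100 counts in both libraries, the transcript length implied by this level and the count was compared between libraries, and it fell within 5% of the median ratio of 0.986 for 96.8% of genes. TAP1 was the exception among the 8 genes compared, with 2643 and 2777 bases, a ratio 6.56% above that median. HLA-F, with under 100 counts in the parental library, was not compared. The implied length need not be that of the longest coding GENCODE transcript. It was 6821 and 6732 bases for NLRC5 (transcript 6822), 4543 and 4443 for TAP2 (5684) and 814 and 799 for B2M (1705), so the levels rest on a gene length that is not stated. The deposited values behave as if 1 was added before the logarithm, which is not stated in the sources used here. A difference of such log2 values shrinks at low levels, and the ratio of the levels per length does not. On this scale B2M stood first with 242.2 in parental and 393.3 in resistant cells. HLA-C followed with 32.2 and 58.3.

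HLA-B, TAP2 and HLA-E stood at 19.7, 19.3 and 18.9 in the parental library, gaps smaller than their counting errors. In the resistant library HLA-B was at 56.3, close to HLA-C, while TAP2 and HLA-E remained at 20.0 and 19.3. TAP1 moved from rank 7 of 9, at 8.10, to rank 4, at 29.9, and passed TAPBP (11.8 and 14.4), HLA-E and TAP2. HLA-F, at 3.36 and 8.97, and NLRC5, at 1.05 and 3.75, were lowest in both libraries. The heavy chain levels per length thus stayed well below that of their shared light chain in both.

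**Figure D3:**
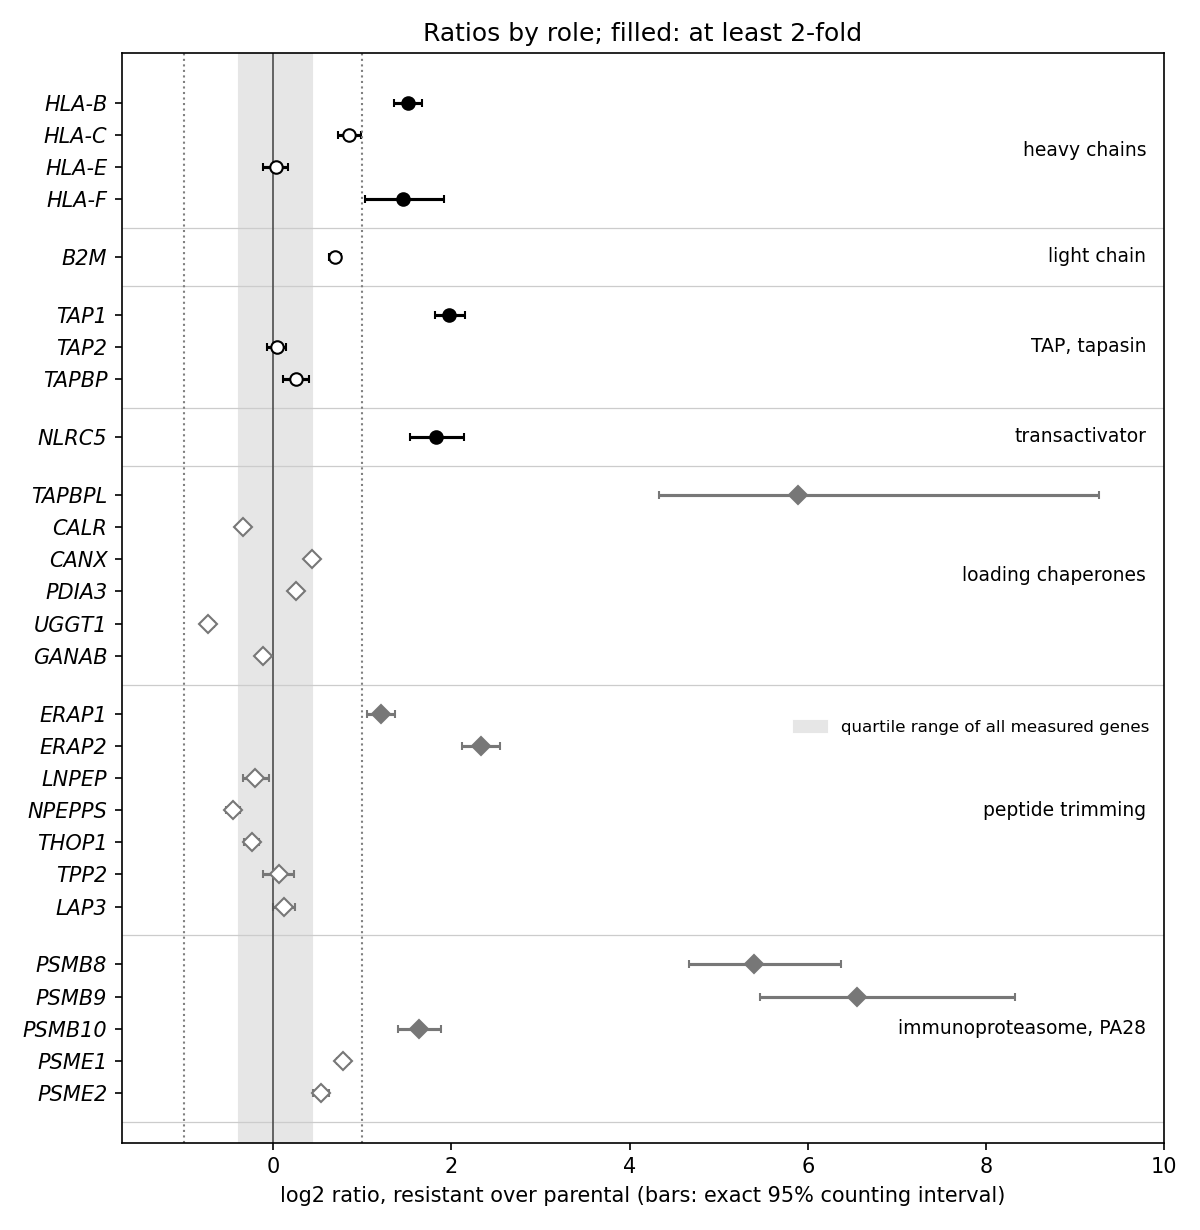
Log2 ratios, resistant over parental (1 library each), of the 9 genes (circles) and of loading chaperone, peptide trimming and immunoproteasome genes (diamonds), with exact 95% counting intervals; filled symbols passed the 2-fold rule, dotted lines mark it, and the grey band spans the quartiles of all measured genes, -0.39 and 0.43. HLA-E, TAP2 and TAPBP lie inside the band, while PSMB9, PSMB8 and TAPBPL lie above 5.

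Genes that supply and trim peptides were taken from lists drawn up with earlier results of these data known. Over all measured genes 12.1% were higher and 8.29% lower, and the counts of each list below stand beside these shares. Few or no calls in a short list lie near them. The immunoproteasome replaces the catalytic subunits of the proteasome by PSMB8, PSMB9 and PSMB10, and PA28 is its activator. Of these 5 genes 3 passed upward and 0 downward, and the median log2 ratio was 1.64. PSMB9 had 5 parental and 520 resistant counts (log2 ratio 6.55), PSMB8 had 13 and 574 (5.40) and PSMB10 had 194 and 609 (1.64). PSME1, the most abundant of them, was at 0.78, and PSME2 was at 0.54. None of the 3 constitutive counterparts was called, with PSMB5 the most abundant at 0.23, PSMB6 at 0.32 and PSMB7 at 0.38.

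PSMB9 and TAP1 lie head to head, and their 250-base windows share 13 bases. The fold of PSMB9 was nevertheless 26.2 times that of TAP1 (11.0 to 81.8). PSMB8 and PSMB9 fell short of 1 CPM in parental cells and entered through the resistant library, which fixed the direction of their difference but not its size.

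Of 7 peptide trimming genes 2 passed upward and 0 downward, and the median was 0.06. These were the aminopeptidases of the endoplasmic reticulum, ERAP1 with 448 and 1045 counts (1.21) and ERAP2 with 212 and 1074 (2.33). The cytosolic peptidase gene NPEPPS, the most abundant, was at -0.45. Among 6 loading chaperones outside the 9 genes, TAPBPL was the 1 called, with 2 and 149 counts (5.89, interval 4.33 to 9.27). TAPBPL encodes the tapasin-related peptide editor TAPBPR and was measured through the resistant library only. The general chaperone genes did not pass the 2-fold rule, with CANX, the most abundant, at 0.44, PDIA3 at 0.25, GANAB at -0.12, CALR at -0.34 and UGGT1 at -0.73. The median of this list was 0.06.

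Factors that act with NLRC5 or at the same promoters followed. None of 8 genes of the promoter complex on the X and Y boxes was called, with a median of 0.14, CREB1 the most abundant at -0.39 and RFX5 at 0.16. Of 5 NF-kB subunit genes RELB was higher (148 and 308 counts, 1.04), while NFKB2, whose mean CPM was the highest of the list although other subunits led in parental cells, was just under the rule at 0.99. RELB was no longer called when the whole interval had to lie beyond 2-fold. Its deposited log2 values differed by 0.89, and its levels per length by a log2 ratio of 1.05. Of 10 genes of polycomb repressive complex PRC2 and of other listed regulators of class I, 0 were called, with a median of -0.34. SUZ12, the most abundant, was at -0.12, and MARCH9, nearest the rule, was at -0.96.

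Of 17 interferon receptor, JAK, STAT, IRF and SOCS genes, 16 were measured, of which 4 passed upward and 0 downward, and the median was 0.40. IRF1, a transcription factor that acts on interferon response elements, had 250 and 857 counts (1.76). IRF9 had 35 and 107 (1.59), IRF7 had 25 and 61 (1.26) and the feedback inhibitor gene SOCS3 had 390 and 862 (1.13). JAK1, the most abundant of the list, was at 0.60. Under the rule that the whole interval lie beyond 2-fold, 2 of these genes were called, and IRF7 was at 0.73 with the deposited log2 values and at 1.33 by levels per length. The genes of 9 interferon ligands were all below 1 CPM in both libraries, with 11 parental and 17 resistant counts in all.

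Interferon-stimulated genes differed in both directions. Of 43 on the list 24 were measured, 8 were higher (against 12.1% of all measured genes) and 3 lower (against 8.29%). The median was 0.55, or 0.12 with no filter on low counts. The higher ones were UBE2L6 (2 and 263 counts), IFIT3 (3 and 222), IFITM2 (7 and 121), PARP14 (197 and 1287), OAS3 (216 and 1234), TRIM21 (21 and 104), IFI6 (13 and 54) and SAMD9 (163 and 361). UBE2L6, IFIT3, IFITM2 and IFI6 were measured through the resistant library only. The lower ones were OAS1 (168 and 20), IFI44L (126 and 28) and IFIT1 (119 and 35). The abundant WARS had a ratio of 0.27, the top level of the list. By the deposited log2 values, SAMD9 (0.76), IFI44L (-0.82 or, by counts, -2.16) and IFIT1 (-0.83) did not pass, and OAS1, at -2.13, was the 1 gene lower. By levels per length the log2 ratios of SAMD9, IFI44L and IFIT1 were 1.13, -2.18 and -1.78, close to those from the counts.

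Class I-like chains and ligands of the activating receptor NKG2D were also followed. Of 14 on the list 7 were measured, of which 5 passed upward and 0 downward, and the median was 2.46. This median was 0.45 with no filter on low counts and 3.65 with at least 5 CPM. The stress-induced NKG2D ligand genes MICA and MICB had 25 and 522 counts (4.34) and 158 and 878 counts (2.46), and MICB was the most abundant of the list. FCGRT, whose product is the neonatal Fc receptor chain that pairs with beta-2-microglobulin, had 0 and 158 counts. Set against a floor of 3 counts in the parental library, FCGRT was 52.2-fold higher. That figure leaves out the counting error of the 158 counts, and the exact interval began at 42.0-fold. PROCR had 8 and 107 counts (3.65) and ULBP2 had 14 and 37 (1.36, or 0.72 with the deposited log2 values and 1.39 by levels per length). FCGRT, PROCR and ULBP2 were measured through the resistant library only. MICA and MICB share sequence, so reads may be split between them.

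Of the 9 genes, 7 lie on chromosome 6 in the block from HLA-F to TAPBP, the major histocompatibility complex, whereas B2M lies on chromosome 15 and NLRC5 on chromosome 16. The 7 had a median log2 ratio of 0.85 and were all above 0, though the intervals of HLA-E and TAP2 included 0. Of 130 other genes of the table in this block 81 were measured, and their median was -0.38, with quartiles of -0.70 and -0.04. Among these neighbours 6 were higher (against 12.1% of all measured genes) and 15 lower (against 8.29%), and 18 had a ratio above 0. MICA, MICB, PSMB8 and PSMB9 were 4 of the 6. The others, named after their values were seen, were the complement gene CFB (12 and 275 counts, 4.45) and HSD17B8 (39 and 97, 1.29). CFB, PSMB8 and PSMB9 were measured through the resistant library only, which fixed their direction. Among the lower neighbours, TRIM31, TRIM39-RPP21, SLC44A4 and HSPA1L were measured through the parental library only.

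Without the genes of the lists, 76 neighbours had a median of -0.39, with 2 higher and 15 lower. The lowest ratio in the block, also named after it was seen, was that of the heat shock gene HSPA1A at -5.75 (3432 and 64 counts), which has near-identical copies. Measured genes next to each other differed widely. HLA-B and HLA-C lay between TCF19 (-1.01) and MICA (4.34), and TAP1 between PSMB8 (5.40) and PSMB9 (6.55), with TAP2 (0.04) beside them. On either side of the block, the 81 nearest measured genes before HLA-F had a median of -0.11 (9 higher, 7 lower) and the 81 after TAPBP a median of -0.53 (2 higher, 9 lower). Over all measured genes 12.1% were higher and 8.29% lower, and the calls before HLA-F lay near these shares. These flanks were added after the data were seen. Copy number was not measured here.

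**Figure D4:**
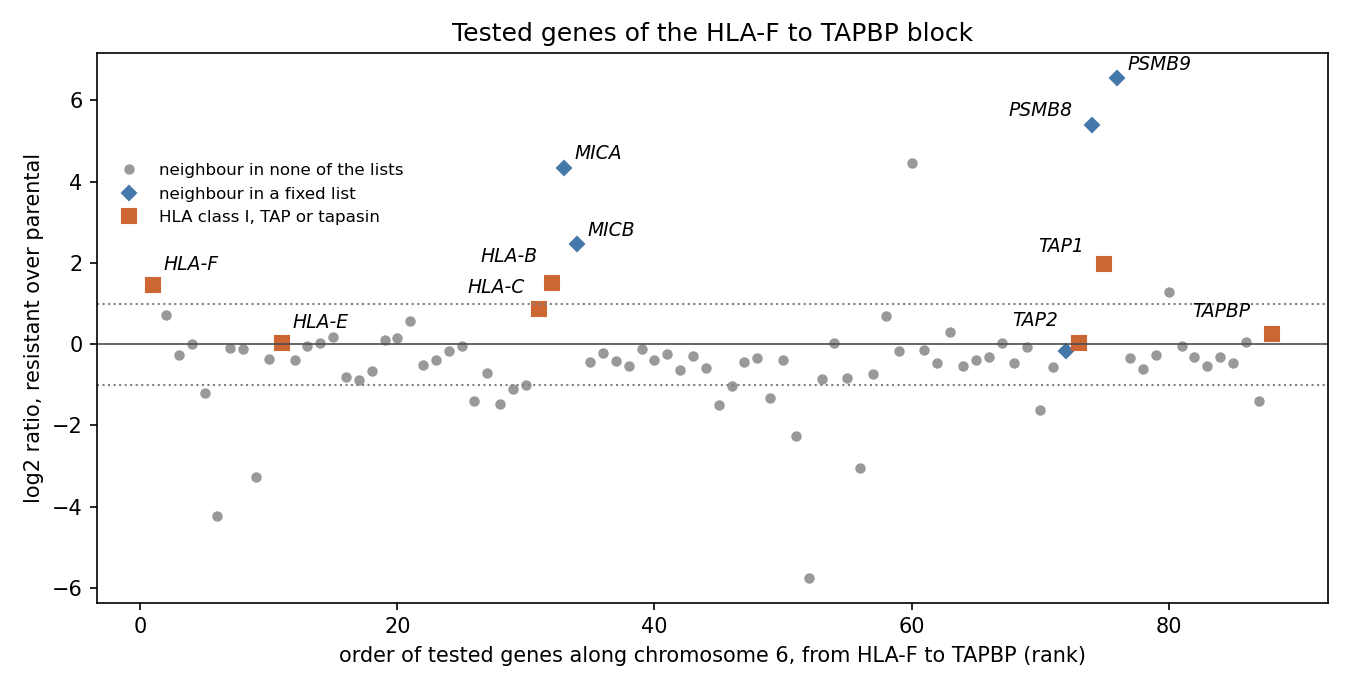
Log2 ratio, resistant over parental (1 library each), of each measured gene from HLA-F to TAPBP against its rank along chromosome 6; squares are the 7 genes described here, diamonds neighbours from the lists, circles other neighbours, and dotted lines mark 2-fold. HLA-F, HLA-B and TAP1 lie above the upper line, while most circles lie below 0, with a median of -0.39.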

How the data were processed

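The authors deposited 1 table with raw counts and normalized log2 values per gene symbol, per the file headers. FastQC and STAR were used for read checks and alignment, per the submitters' processing notes, which name GRCh38 and hg19 with no role. The counting program and the log2 normalization are not given in the sources used here. RNA was extracted with TRIzol, per the labels' protocols.

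Counts were scaled with edgeR 4.0.16 (TMM) in R 4.3.3. Intervals were conditional binomial, Poisson or Clopper-Pearson (scipy 1.17.1). Those of the log2 ratios alone were tried on simulated Poisson counts, the model they assume. That checks the calculation and says nothing of the spread between cultures. Alternatives were total-count scaling, DESeq2 1.42.0 size factors, 2 added to each count, the deposited log2 values, no filter, at least 5 CPM, and whole intervals beyond 2-fold. RefSeq (GRCh38.p14) placed 18853 of 18944 symbols. Promoter windows were aligned with Biopython 1.88.

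The 9 genes and the lists were chosen with earlier results of these data known. Named genes were the 9, list genes past the rule, each list's most abundant member (by mean CPM) and MET. Other genes named, such as RFX5, were chosen after their values were seen.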

Additional observations from a re-analysis of the deposited data

How the results depend on the processing

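The same 4 genes, HLA-B, HLA-F, TAP1 and NLRC5, were called higher under each of the 7 alternatives. With the deposited log2 values their differences were 1.47, 1.19, 1.76 and 1.21. With the 1 that appears to be added before the logarithm taken off again, they were 1.52, 1.42, 1.88 and 1.83, beside 1.51, 1.46, 1.97 and 1.83 by counts. The median over the 9 genes stayed within the counting interval of HLA-C, the middle gene. The median of the neighbours from HLA-F to TAPBP was -0.38, and it was -0.40 with scaling by total counts, -0.35 with the deposited log2 values and -0.22 with no filter on low counts. Over all genes, 1480 were higher and 1015 lower, against 926 and 591 with the deposited log2 values. When the whole interval had to lie beyond 2-fold, 1097 were higher and 655 lower. The share of measured genes called higher, 12.1% in the main setting, lay between 7.56% and 12.2% under the alternatives. No paired analysis was possible because each group has 1 library. HLA-F, with 60 and 167 counts, has the widest interval of the 9 genes, and no replicate bears on any of them.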
